A study of Mus musculus with 14 samples.

Results

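The Ikaros family is the set of zinc-finger transcription factors encoded by Ikzf1 (Ikaros), Ikzf2 (Helios), Ikzf3 (Aiolos), Ikzf4 (Eos) and Ikzf5 (Pegasus). Chromatin accessibility at these 5 genes was followed in regulatory T (Treg) cells from which the Foxp3 protein was, or was not, degraded in the mouse. A member was any window of the bulk ATAC-seq count table whose centre had 1 of the 5 genes as its nearest protein-coding start site, within 100 kb, on mouse build GRCm38. The rule took 166 of 240778 windows, each spanning 201 bp, while 200965 windows in all lay within that distance of some start site. Ikzf2 had 71 of them, Ikzf1 60, Ikzf3 25, Ikzf4 5 and Ikzf5 5. Because 85 member windows overlapped another window, they formed 115 joined regions.

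All 14 mice carried Foxp3AID, an allele in which Foxp3 is fused to an auxin-inducible degron and which also encodes the ZsGreen reporter and Cre recombinase, and all received the degrader compound 5-ph-IAA daily. In R26TIR1(F74G) mice Cre activity also switches on TIR1(F74G), the plant ligase subunit that, bound to 5-ph-IAA, marks the fusion protein for destruction, so the ligase is limited to cells that have expressed Foxp3. R26WT mice carry the same Foxp3 allele and got the same compound but lack TIR1, and served as controls. Treg cells of spleen and lymph nodes were profiled on day 3 (4 R26WT and 4 R26TIR1(F74G) mice) and day 7 (3 and 3), and the labels gave neither sex, age nor activation state. The study's text describes day 7 accessibility for sorted resting and activated cells of mice heterozygous for Foxp3AID, and the labels do not say which of these, if any, the libraries here are. Each library name held its own mouse name.

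Ikaros and its closest relatives bind short GGGAA-type DNA elements through amino-terminal zinc fingers. Proteins of the family pair with one another through carboxy-terminal fingers, and Ikaros recruits the NuRD chromatin remodelling and deacetylase complex. Ikaros acts throughout lymphocyte development and Aiolos in B cells and in some T cell states, whereas Helios is high in Treg cells that arise in the thymus and is used as a marker of them. Eos has been described as a partner of Foxp3 in gene repression. Pegasus is the most divergent member and is expressed in many tissues.

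The 250 bases before RefSeq start sites are shown for Ikzf1 and Ikzf5, the members matched in the RefSeq promoter table (build GRCm38.p6), because a window lay at or beside each and because base composition separated them. Sequences run 5′ to 3′ on the strand of the gene, with CG dinucleotides in capitals:

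Ikzf1, chr11:11685675-11685924, plus strand: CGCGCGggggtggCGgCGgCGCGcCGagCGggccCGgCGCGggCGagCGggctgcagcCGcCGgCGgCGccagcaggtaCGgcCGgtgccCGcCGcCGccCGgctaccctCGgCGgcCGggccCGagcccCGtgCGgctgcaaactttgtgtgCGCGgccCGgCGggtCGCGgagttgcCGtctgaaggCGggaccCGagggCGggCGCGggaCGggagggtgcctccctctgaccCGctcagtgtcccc
Ikzf1, chr11:11689927-11690176, plus strand: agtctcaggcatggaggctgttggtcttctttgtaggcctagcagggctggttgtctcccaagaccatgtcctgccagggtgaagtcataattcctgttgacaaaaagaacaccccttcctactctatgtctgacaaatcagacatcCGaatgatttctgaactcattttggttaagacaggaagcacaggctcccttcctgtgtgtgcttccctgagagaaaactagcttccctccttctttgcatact
Ikzf5, chr7:131410479-131410728, minus strand: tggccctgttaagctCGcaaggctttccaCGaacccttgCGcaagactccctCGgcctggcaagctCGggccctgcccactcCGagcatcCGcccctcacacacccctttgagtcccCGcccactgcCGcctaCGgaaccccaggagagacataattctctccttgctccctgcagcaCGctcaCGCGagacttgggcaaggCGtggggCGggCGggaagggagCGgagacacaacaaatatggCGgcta

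The upstream Ikzf1 sequence, before the start site at position 11685925, held 44 CG dinucleotides and was 82.0% G or C. The next Ikzf1 sequence, before position 11690177 inside the gene, held 1 CG dinucleotide at 47.6% G or C, and the Ikzf5 sequence held 18 at 64.0%. Over all 32851 promoters of the table the medians were 6 CG dinucleotides and 52.4%. The windows nearest to these Ikzf1 start sites, centred 161 and 125 bp from them, had 13.6 ± 1.61 and 12.7 ± 1.61 counts scaled to library size (CPM, mean ± SD, n = 14 mice), a gap smaller than their spread. The Ikzf5 window, 70 bp from its start site in this table, had 35.7 ± 2.79 CPM.

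Short motifs were searched on both strands of the 300 bases from 250 before to 50 after each start site. None of TGGGAA (Ikaros core), TGTTTAC (forkhead), CGGAAG (Ets), TGTGGT (Runx) and TGACTCA (AP-1) was found in the 3 member promoters. Among all promoters of the table they were found in 25.6%, 3.65%, 16.9%, 16.8% and 5.20%, respectively. This says only that these letters were not in these stretches. The shorter GGGAA, which was not searched for, is in the Ikzf5 sequence printed above. On the other strand it is also in the second Ikzf1 sequence.

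Library totals ran from 5653289 to 20184487 counts, with a median of 15560985, and the lowest totals were those of R26TIR1(F74G) mouse 1 of day 3 and R26WT mouse 3 of day 7 (6348754). The start-site windows of the Treg and CD4 T cell markers Il2ra, Ctla4, Cd4, Cd3e and Cd5 summed to between 46.7 and 71.8 CPM in every library, and Foxp3 itself had no window within 1 kb of its start site. On day 3 that sum was 62.0 to 71.8 CPM in R26WT and 46.7 to 65.1 CPM in R26TIR1(F74G) mice, and on day 7 it was 59.0 to 68.4 and 56.1 to 59.5 CPM. Start-site windows, within 1 kb, were present at 2 of 6 B cell markers (sums of 1.83 to 3.81 CPM across the libraries), 3 of 6 myeloid markers (3.24 to 5.01 CPM) and neither NK cell marker. The 19 windows of the NK cell list lay farther from the start sites. Both CD8 T cell markers had a start-site window, Cd8b1 at 12.5 CPM and Cd8a at 1.33 CPM. By the quasi-likelihood test of edgeR, with p adjusted by Benjamini-Hochberg, no window of these lists passed in a genotype comparison, and the part of any other cell type in the values below was not tested. A lower share of cells with an open window and less opening per cell cannot be told apart in such bulk data.

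Helios and Ikaros genes were surrounded by many more accessible windows than most genes. The median protein-coding gene had 5 windows, fewer windows than Ikzf2 were found at 99.5% of genes, fewer than Ikzf1 at 98.9% and fewer than Ikzf3 at 90.1%. Ikzf4 and Ikzf5, with 5 windows each, lay at the median. Each window went to its nearest start site, so these numbers also depend on how close other genes lie. Another 11 windows inside Ikzf4 and 26 inside Ikzf3 went to neighbours. The part of gene length and spacing in these ranks was not tested. The Ikzf2 windows reached from 65539 bp before its start site (the gene is at chr1:69531207-69687351, minus strand) to 88541 bp into the gene, with 5 within 1 kb of the start site, 40 more in the gene body and 26 outside it. For Ikzf1 (chr11:11684962-11772930, plus strand) 3 windows lay at the start site, 36 in the gene body and 21 outside. All 25 windows of Ikzf3 (chr11:98464610-98546031, minus strand) and all 5 of Ikzf4 (chr10:128630839-128669671, minus strand) lay within the gene, and those of Ikzf5 (chr7:131388649-131410518, minus strand) lay within 1124 bp of its start site. Member windows had a median of 2.57 CPM, against 1.80 CPM over all windows.

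**Figure D1:**
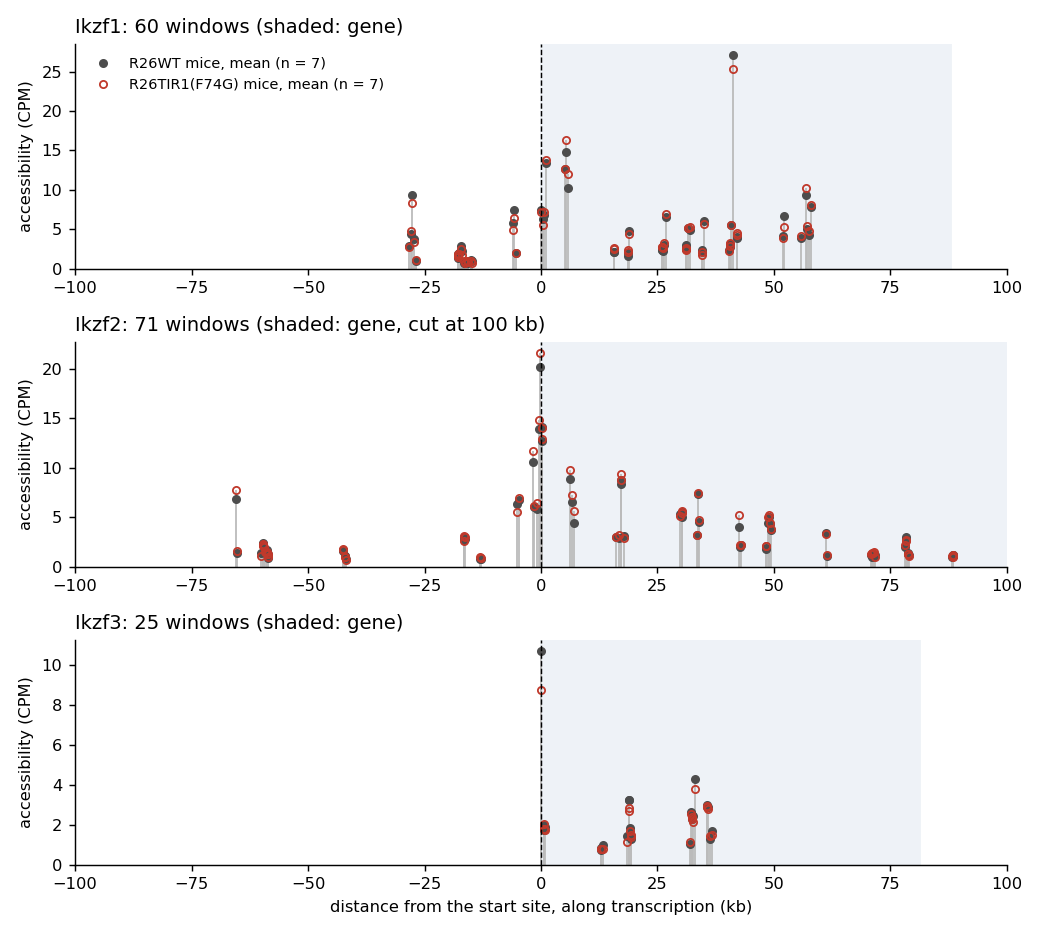
Mean accessibility of each member window of Ikzf1, Ikzf2 and Ikzf3 (CPM, vertical axis) by its distance from the gene's start site (kb, horizontal axis, positive into the gene), with the gene shaded and 1 point each for the mean of 7 R26WT and of 7 R26TIR1(F74G) mice. The Ikzf1 maximum of 26.3 CPM lies inside the gene, the Ikzf2 maximum of 20.9 CPM at the start site, and points of the 2 genotypes mostly lie on one another.

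Among the windows nearest the outermost start site of each gene, the one used here, that of Pegasus was the most accessible and that of Eos the least. Windows all have the same width, so their CPM can be set side by side. The window nearest the start site had 35.7 ± 2.79 CPM for Ikzf5, 14.1 ± 1.76 for Ikzf2, 9.75 ± 1.34 for Ikzf3, 7.31 ± 0.85 for Ikzf1 and 3.20 ± 0.63 for Ikzf4 (mean ± SD, n = 14 mice). In the same order they were centred 30, 197, 83, 3 and 697 bp from the start site. Those of Ikzf2 and Ikzf4 did not cover it, and the part of this distance in the levels was not tested. Over all start-site windows the median was 4.48 CPM, and 94.7%, 78.7%, 70.9%, 64.2% and 39.4% of them were below these 5 windows, respectively. The order held in all 14 mice between Ikzf5 and Ikzf2, between Ikzf2 and Ikzf3 and between Ikzf1 and Ikzf4, and in 13 of 14 between Ikzf3 and Ikzf1. It holds for these start sites only: the window beside the RefSeq Ikzf1 start printed first above, at 13.6 CPM, was above that of Ikzf3, and Ikzf4 has other starts, described below. The spread between mice of 1 group was 7.90% of the mean for Ikzf5, 11.8% for Ikzf2, 8.38% for Ikzf3, 12.8% for Ikzf1 and 17.1% for Ikzf4.

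The strongest window of Ikzf1 was not at its start site but 41275 bp into the gene (chr11:11726137-11726338), at 26.3 ± 4.65 CPM. In R26WT mice it had 24.4, 29.4, 24.1 and 28.4 CPM on day 3 and 36.1, 27.0 and 20.7 on day 7, and in R26TIR1(F74G) mice 32.2, 21.9, 30.5 and 21.6 on day 3 and 21.4, 27.3 and 22.7 on day 7. All groups overlapped, and the log2 fold change of R26TIR1(F74G) over R26WT was -0.13 ± 0.10 (SE) over both days (edgeR quasi-likelihood test, adjusted p = 0.880), and -0.03 without R26WT mouse 1 of day 7. At Ikzf2 the window 213 bp before the start site (chr1:69687464-69687665) was above the start-site window, at 20.9 ± 2.16 CPM. It had 20.7, 18.7 and 17.4 CPM in R26WT and 21.3, 20.9 and 21.0 in R26TIR1(F74G) mice on day 7, which did not overlap but differed by a log2 value of only 0.14 ± 0.12 (adjusted p = 0.919).

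**Figure D2:**
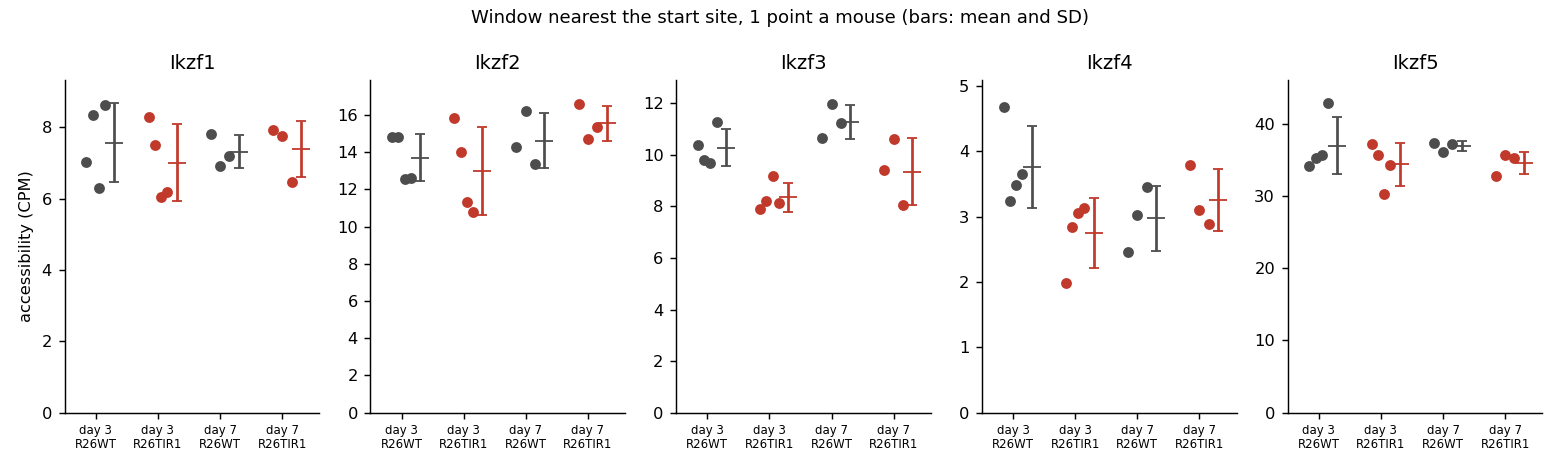
Accessibility (CPM, vertical axis) of the window nearest the start site of each of the 5 genes, 1 panel a gene, in R26WT and R26TIR1(F74G) mice on days 3 and 7, each point a mouse, with the mean and SD of each group. The Ikzf3 points of R26TIR1(F74G) mice lie below those of R26WT mice on both days, while the genotypes overlap at Ikzf1 and Ikzf2.

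The first question was whether the genes of the family opened or closed when Foxp3 protein was lost. No member window passed the test in any comparison. By edgeR's quasi-likelihood test, with adjustment over all windows tested, the smallest adjusted p of a member was 0.704 on day 7, 0.561 on day 3 and, fitting both days together with a term for day, 0.542. Calls were rare everywhere: the share of all windows that passed was 0.00463% on day 7, 0.0% for day 3 and 0.0112% for both days. DESeq2 called no member window either, with 0.154 as its smallest adjusted p over both days.

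At an unadjusted p under 0.05 the members stood near or below the rest of the genome. On day 7 there were 8 of 163 member windows tested (5.95% of all windows), 3 higher and 5 lower in R26TIR1(F74G) mice, and DESeq2 gave 1. On day 3 there were 7 of 163 (7.55% of all windows), all lower, and DESeq2 gave 3. Over both days there were 8 of 166 (6.73% of all windows), 4 in each direction, and DESeq2 gave 5. These counts moved in both directions with single mice: the day 7 count was 4, 3 and 2 without R26TIR1(F74G) mouse 1, R26TIR1(F74G) mouse 3 and R26WT mouse 2 of that day, and the day 3 count was 3 without R26WT mouse 4. The count of both days was 5 or 4 without R26TIR1(F74G) mouse 3 or 4 of day 3, and 5 without R26TIR1(F74G) mouse 1 or 3 of day 7. The groups did not overlap at 23 of 163 members on day 7, where 11.8% of all windows did so, at 5 of 163 on day 3 (4.1%) and at 0 of 166 over both days (0.116%). The median log2 fold change of the members was 0.04 on day 7, -0.01 for day 3 and 0.01 with both days, against -0.01, 0.01 and 0.00 over all windows.

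**Figure D3:**
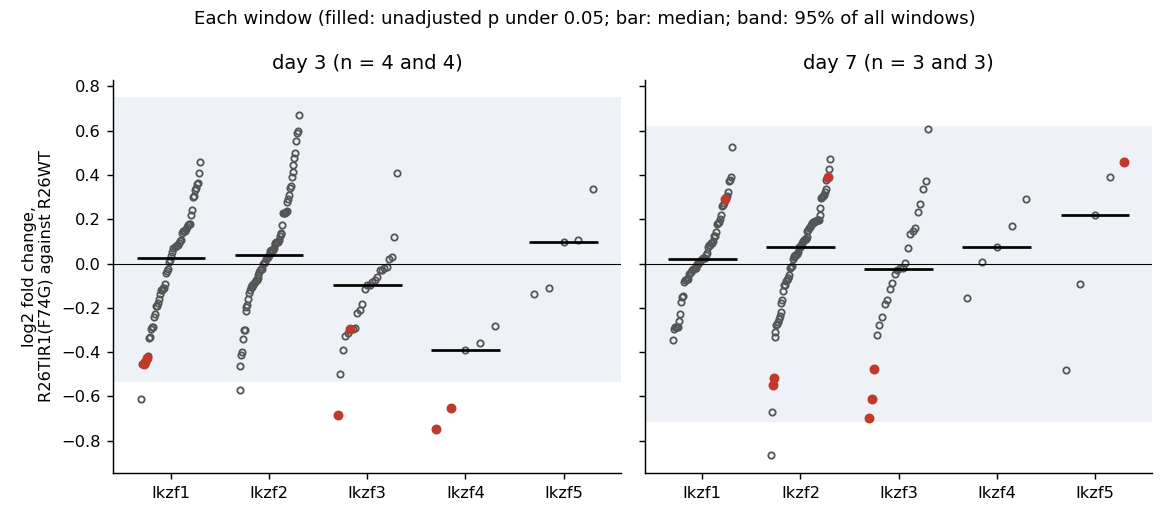
Log2 fold change of R26TIR1(F74G) over R26WT (vertical axis) for every member window tested, by gene, on day 3 and day 7, with filled points at an unadjusted p under 0.05, a bar at each gene's median and a band over the central 95% of all windows tested. Most points of each gene lie inside the band, and the day 3 median is highest for Ikzf5, at 0.10, and lowest for Ikzf4, at -0.39.

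Helios was the only member whose summed windows did not overlap between the genotypes, although the difference did not pass the main test. Counts were summed per gene over non-overlapping member windows and given as CPM of all such gene sums. On day 3 the Ikzf2 sum was 277.5, 293.0, 290.5 and 265.5 CPM in R26WT mice and 294.8, 299.9, 302.2 and 310.5 CPM in R26TIR1(F74G) mice. The day 7 sums were 287.3, 283.1 and 266.9 CPM in R26WT and 309.1, 295.4 and 311.0 CPM in R26TIR1(F74G) mice. Each of the 7 R26TIR1(F74G) mice was thus above each of the 7 R26WT mice (nearest pair 294.8 and 293.0 CPM). Groups apart in either direction were found at 0.354% of all gene sums.

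Over both days the log2 fold change of the Ikzf2 sum was 0.11 ± 0.03 (95% interval 0.04 to 0.18), which is 8.07% more in R26TIR1(F74G) mice (3.01% to 13.4%). It did not pass the adjustment over all gene sums with edgeR (adjusted p = 0.159, rank 256 of 15840 genes by unadjusted p), where 0.0694% of the sums passed, but did with DESeq2 (adjusted p = 0.0392). Over the other alternatives its log2 fold change lay between 0.10 and 0.13, and its adjusted p reached 0.328 when R26WT mouse 4 of day 3 was left out. The prefix of the mouse names was E for R26TIR1(F74G) mice 3 and 4 and R26WT mouse 4 of day 3. It was also E for R26TIR1(F74G) mouse 3 of day 7 and AC for all others, so it was uneven between genotypes. With this prefix (AC or E) as a term, the log2 fold change was 0.11 (adjusted p = 0.228). Taken by day, it was 0.13 ± 0.05 on day 7 (adjusted p = 0.624) and 0.10 ± 0.05 on day 3 (adjusted p = 0.301), where 0.0% and 0.114% of all gene sums passed, and the test of the difference between days gave 0.03 ± 0.07 (adjusted p = 0.929).

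**Figure D4:**
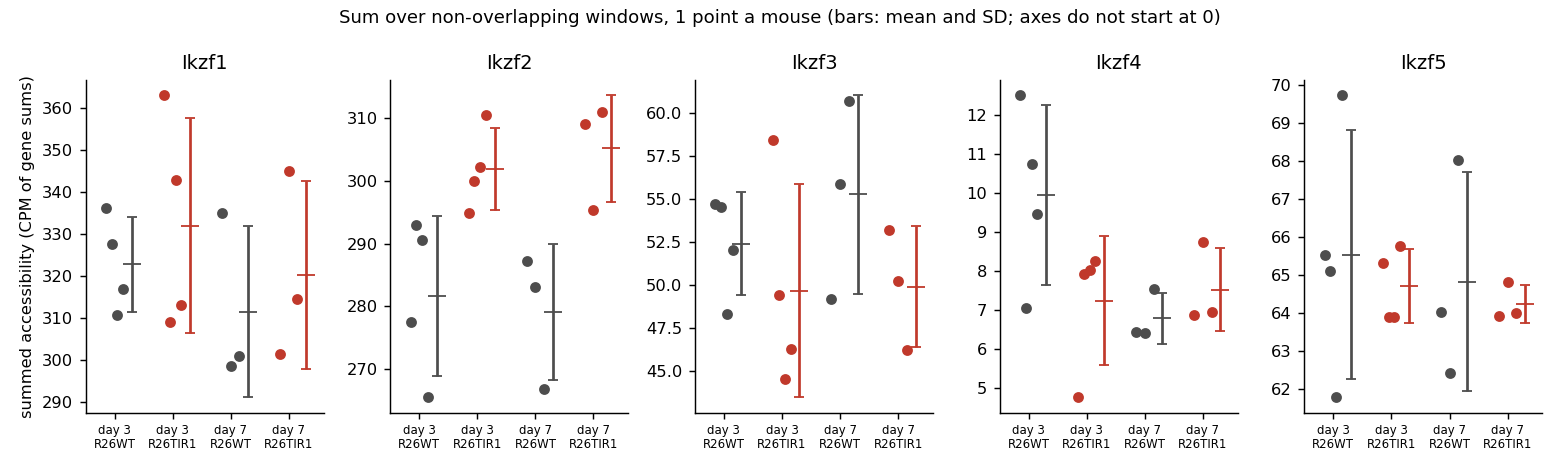
Summed accessibility of each of the 5 genes (CPM of all gene sums, vertical axis, not starting at 0) in R26WT and R26TIR1(F74G) mice on days 3 and 7, each point a mouse. For Ikzf2 the lowest R26TIR1(F74G) mouse, at 294.8 CPM, lies above the highest R26WT mouse, at 293.0 CPM, while the genotypes overlap for the other 4 genes.

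Within the Ikzf2 windows, values above 0 were found at the start site and in the gene body. Of its 71 windows, 45 (63.4%) had a value above 0 over both days, against 50.7% of all windows, with 4 of 5 at the start site (median log2 fold change 0.09), 28 of 40 in the gene body (0.04) and 13 of 26 outside the gene (0.00). Overlapping windows share reads, so these windows are not independent. Another 40 windows lay inside the Ikzf2 gene beyond 100 kb of its start site and so were no members, and 29 of them had a value above 0 over both days, with a median log2 fold change of 0.07. The window nearest the start site (chr1:69687054-69687255, 197 bp into the gene) had 14.8, 14.8, 12.6 and 12.6 CPM in R26WT and 15.8, 14, 11.3 and 10.8 in R26TIR1(F74G) mice on day 3, with a log2 fold change over both days of -0.02 ± 0.10 (adjusted p = 0.989).

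Within the Ikzf2 gene the window 7037 bp from the start site (chr1:69680214-69680415) had the smallest p among members that were higher over both days. On day 7 it had 4.39, 4.30 and 4.80 CPM in R26WT mice and 6.52, 5.07 and 5.87 in R26TIR1(F74G) mice, without overlap. On day 3 the R26WT mice had 4.502, 3.37, 4.44 and 5.02 CPM and the R26TIR1(F74G) mice 6.83, 4.88, 4.03 and 6.03, with overlap. The log2 fold change of this window was 0.33 ± 0.13 over both days (adjusted p = 0.636) and 0.39 ± 0.18 on day 7 (adjusted p = 0.824).

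A second window of the Ikzf2 gene body, 42405 bp from the start site (chr1:69644846-69645047), had 3.64, 4.30, 4.03 and 4.25 CPM in R26WT against 5.94, 5.10, 5.07 and 4.18 in R26TIR1(F74G) mice on day 3. The day 7 values were 5.04, 4.19 and 3.00 against 5.67, 4.23 and 6.12 CPM. The groups overlapped on both days, and the log2 fold change was 0.31 ± 0.13 over both days (adjusted p = 0.667). Deeper in the gene, 71517 bp from the start site (chr1:69615734-69615935), values were 1.13, 0.99, 1.16 and 1.298 CPM in R26WT and 1.62, 1.45, 1.86 and 1.85 in R26TIR1(F74G) mice on day 3, without overlap (log2 fold change 0.56 ± 0.30, adjusted p = 0.690). The window 48208 bp from the start site (chr1:69639043-69639244) had a log2 fold change of 0.50 ± 0.26 on day 3 (adjusted p = 0.674), or 0.33 without R26WT mouse 4, and of -0.28 ± 0.29 on day 7 (adjusted p = 0.940).

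At Aiolos most values were lower in R26TIR1(F74G) mice, but the windows around its start site did not all share this. The Ikzf3 window 83 bp from the start site (chr11:98545848-98546049) had 10.4, 9.79, 9.70 and 11.3 CPM in R26WT and 7.91, 8.21, 9.17 and 8.12 CPM in R26TIR1(F74G) mice on day 3. On day 7 it had 10.7, 11.98 and 11.3 CPM against 9.41, 10.6 and 8.04 CPM. The groups did not overlap on either day. Its log2 fold change was -0.29 ± 0.10 over both days (95% interval -0.49 to -0.08, adjusted p = 0.573), -0.29 ± 0.14 on day 3 (adjusted p = 0.654) and -0.28 ± 0.15 on day 7 (adjusted p = 0.855), and the last was -0.18 without R26TIR1(F74G) mouse 3. The other 4 Ikzf3 windows within 1 kb of the start site had higher values on day 7 (log2 fold change 0.13 to 0.34) and lower ones on day 3 (-0.39 to -0.22), and over both days they lay between -0.09 and 0.00.

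Of the 25 Ikzf3 windows, 6 (24.0%) had a value above 0 over both days, 4 on day 3 and 10 of the 24 tested on day 7. Over all windows the shares above 0 were 50.7%, 51.15% and 49.03%, respectively. Overlapping windows share reads and are not independent, and the 25 windows of Ikzf3 form 15 joined regions. Its gene sum was 54.7, 54.5, 48.3 and 52.1 CPM in R26WT and 58.4, 49.4, 44.5 and 46.3 CPM in R26TIR1(F74G) mice on day 3, and 49.2, 55.9 and 60.7 against 53.2, 50.3 and 46.2 CPM on day 7. The genotypes overlapped on both days. The log2 fold change over both days was -0.11 ± 0.06 (95% interval -0.24 to 0.02, adjusted p = 0.442), and over all alternatives it lay between -0.17 and -0.07. It was -0.15 without R26TIR1(F74G) mouse 1 of day 3, the shallowest library, and -0.09 without R26WT mouse 3 of day 7, the next shallowest.

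Another 26 windows lay inside the Ikzf3 gene but nearer to the start site of Mien1, its neighbour, and so were no members. Over both days 5 of them had a value above 0, against 50.7% of all windows. An unadjusted p under 0.05 was found for 5 of the 26 (6.73% of all windows), all lower, with a median log2 fold change of -0.24. Adding the non-overlapping ones to the gene sum, an alternative chosen after seeing the data, gave -0.16 ± 0.05 (95% interval -0.26 to -0.06, adjusted p = 0.163 by edgeR).

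Within the Ikzf3 gene body the lowest day 7 values lay 18830 bp from the start site (chr11:98527101-98527302). R26WT mice had 2.65, 3.66 and 3.599 CPM and R26TIR1(F74G) mice 2.30, 1.91 and 1.82 CPM, without overlap. The log2 fold change was -0.70 ± 0.24 on day 7 (adjusted p = 0.704) and 0.03 ± 0.22 on day 3 (adjusted p = 0.988), where the groups had 3.12, 3.64, 3.76 and 2.48 against 5.04, 3.06, 2.46 and 3.46 CPM. The window 18793 bp from the start site, which overlaps it, had -0.61 ± 0.25 on day 7 (adjusted p = 0.803), and the window 32962 bp from the start site (chr11:98512969-98513170) -0.48 ± 0.21 (adjusted p = 0.814), which was -0.30 without R26WT mouse 3. On day 3 these windows had -0.11 ± 0.22 and 0.02 ± 0.20.

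Ikaros showed values in both directions. Its start-site window (chr11:11684859-11685060) had 7.01, 8.34, 6.28 and 8.62 CPM in R26WT and 8.27, 7.51, 6.04 and 6.19 in R26TIR1(F74G) mice on day 3, and 7.82, 6.92 and 7.198 against 7.91, 7.75 and 6.48 on day 7. All groups overlapped (log2 fold change over both days -0.07 ± 0.11, adjusted p = 0.953). The Ikzf1 gene sum had a log2 fold change of 0.04 ± 0.04 over both days (95% interval -0.05 to 0.12, adjusted p = 0.717), with 33 of 60 windows above 0. The sum ran from 298.6 to 336.3 CPM in R26WT and from 301.6 to 363.2 CPM in R26TIR1(F74G) mice.

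The member window with the smallest p over both days lay 52175 bp into the Ikzf1 gene (chr11:11737037-11737238). On day 3 it had 5.28, 7.08, 8.26 and 7.79 CPM in R26WT and 7.19, 5.74, 4.47 and 4.18 in R26TIR1(F74G) mice. The day 7 values were 6.53, 6.16 and 5.70 against 3.85, 6.08 and 5.36 CPM. The groups overlapped on both days, and the log2 fold change was -0.38 ± 0.13 over both days (adjusted p = 0.542) and -0.45 ± 0.17 on day 3 (adjusted p = 0.561).

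A pair of overlapping windows 5854 and 6005 bp before the Ikzf1 start site also had lower values. The nearer one (chr11:11679008-11679209) had 6.93, 7.41, 7.92 and 9.15 CPM in R26WT and 8.63, 6.65, 5.74 and 5.63 in R26TIR1(F74G) mice on day 3, which overlapped, and its log2 fold change over both days was -0.26 ± 0.12 (adjusted p = 0.722), or -0.17 without R26WT mouse 1 of day 7. For the farther one it was -0.42 ± 0.18 on day 3 (adjusted p = 0.590) and -0.07 ± 0.19 on day 7 (adjusted p = 0.983).

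On the other side, the window 5784 bp into the Ikzf1 gene (chr11:11690646-11690847) had 12.1, 9.54 and 11.6 CPM in R26WT and 12.8, 14.5 and 13.0 in R26TIR1(F74G) mice on day 7, without overlap. This window is near the inner RefSeq start site with the sequence poor in CG dinucleotides shown above. Genotypes differed there by a log2 fold change of 0.29 ± 0.14 on day 7 (adjusted p = 0.837), which was 0.18 without R26WT mouse 2, and of 0.21 ± 0.10 over both days (adjusted p = 0.735). The window 26089 bp into the gene (chr11:11710951-11711152) had 0.46 ± 0.24 on day 3 (adjusted p = 0.677) and 0.03 ± 0.27 on day 7 (adjusted p = 0.996). Another 12 windows lay inside the Ikzf1 gene but nearer to the start site of Fignl1, the strongest of them 81309 bp from the Ikzf1 start site (chr11:11766171-11766372) at 14.3 CPM, and its log2 fold change over both days was -0.28 ± 0.10 (adjusted p = 0.560).

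Eos, whose member windows had the lowest median level of the family, had lower values at them in R26TIR1(F74G) mice on day 3 and not on day 7. Its start-site window (chr10:128668874-128669075, 697 bp into the gene) had 4.68, 3.24, 3.48 and 3.66 CPM in R26WT and 1.98, 2.84, 3.06 and 3.14 in R26TIR1(F74G) mice on day 3, without overlap. On day 7 it had 2.46, 3.02 and 3.45 against 3.797, 3.10 and 2.88 CPM, with overlap. The log2 fold change was -0.39 ± 0.21 on day 3 (adjusted p = 0.683) and 0.17 ± 0.22 on day 7 (adjusted p = 0.955), and the latter was 0.04 without R26WT mouse 1 and likewise without R26TIR1(F74G) mouse 1. The window 5671 bp from the start site (chr10:128663900-128664101) had 1.73, 1.13, 2.87 and 1.83 CPM against 0.54, 1.13, 1.27 and 1.29 CPM on day 3, with overlap (log2 fold change -0.75 ± 0.31, adjusted p = 0.590, and -0.48 without R26WT mouse 3).

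The Ikzf4 gene sum rested on 3 non-overlapping windows. It was 12.5, 7.05, 10.7 and 9.47 CPM in R26WT and 4.75, 7.92, 8.01 and 8.25 CPM in R26TIR1(F74G) mice on day 3, and 6.42, 6.39 and 7.54 against 6.86, 8.74 and 6.94 CPM on day 7. Its log2 fold change was -0.41 ± 0.20 on day 3 (95% interval -0.81 to 0.00, adjusted p = 0.297), where the lowest value was that of the shallowest library and leaving that mouse out gave -0.30. On day 7 it was 0.17 ± 0.20 (adjusted p = 0.858), and 0.05 without R26TIR1(F74G) mouse 2, and the difference between the days was 0.57 ± 0.29 (adjusted p = 0.513).

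The Ikzf4 values depended on which windows in the gene were counted, and start sites other than the outermost were not tested. The outermost start is that of 2 of the 13 transcripts annotated for the gene, and the other 11 start 22804 to 24710 bp further in. Another 11 windows lay inside the gene but nearer to the start site of Rps26, and the strongest of these, 32486 bp from the outermost start (chr10:128637085-128637286), had 21.8 CPM, well above any Ikzf4 member. Its log2 fold change over both days was -0.23 ± 0.09 (adjusted p = 0.630). With such windows added, the Ikzf4 sum had -0.15 ± 0.08 on day 3 (adjusted p = 0.336) and -0.07 ± 0.08 on day 7 (adjusted p = 0.858), so that the direction on day 7 turned.

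Pegasus had the gene sum closest to no difference over both days. Its start-site window (chr7:131410448-131410649) had 34.2, 35.3, 35.7 and 42.9 CPM in R26WT and 37.2, 35.7, 30.3 and 34.4 in R26TIR1(F74G) mice on day 3, and 37.4, 36.1 and 37.2 against 32.8, 35.6 and 35.4 on day 7. The groups overlapped on day 3 and not on day 7, and the log2 fold change was -0.10 ± 0.08 over both days (adjusted p = 0.877), or -0.06 without R26WT mouse 4 of day 3. The gene sum stayed between 61.8 and 69.7 CPM in all mice, and its log2 fold change was -0.01 ± 0.05 over both days (95% interval -0.11 to 0.09, adjusted p = 0.921). On day 7 the genotypes did not overlap at any of its 5 windows, which was so at 11.8% of all windows. Values in R26TIR1(F74G) mice were higher at 3 of the 5 and lower at 2. These 5 windows form 4 joined regions. The window 673 bp from the start site (chr7:131409745-131409946), at 2.71, 2.50 and 2.55 CPM in R26WT and 3.74, 3.52 and 3.44 in R26TIR1(F74G) mice, had the smallest p of these (log2 fold change 0.46 ± 0.22, adjusted p = 0.833).

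**Figure D5:**
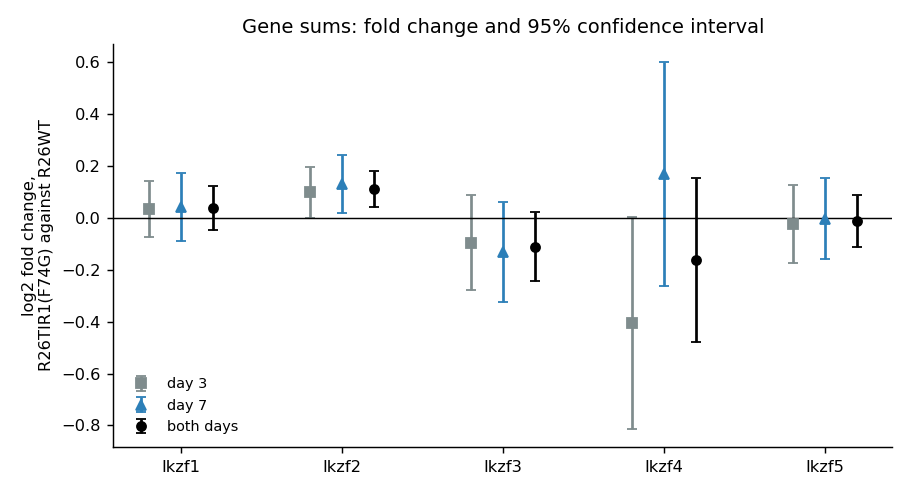
Log2 fold change of R26TIR1(F74G) over R26WT with its 95% interval (vertical axis) for the gene sum of each of the 5 genes (horizontal axis), for day 3, for day 7 and for both days together. The Ikzf2 interval over both days runs from 0.04 to 0.18, whereas those of the other 4 genes include 0, and the Ikzf4 intervals are the widest.

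Only 1 of the 5 gene sums, that of Ikzf2, had an unadjusted p under 0.05 in a genotype comparison, on day 7 and over both days. Over all genes the share under 0.05 was 7.66% on day 7, 16.9% for day 3 and 14% with both days. On a single day the Ikzf2 groups did not overlap either, which was so for 14.8% of all gene sums on day 7 and 7.86% on day 3.

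Whether the effect of genotype differed between the days was tested with an interaction term. No member window passed (smallest adjusted p 0.745, 0.0% of all windows called), and 6 of 166 had an unadjusted p under 0.05 against 6.32% of all windows, with 4 by DESeq2 and 10 without R26WT mouse 3 of day 7. None of the 5 gene sums passed (0.0% called) or had an unadjusted p under 0.05, where 10.2% of all gene sums did. The smallest p belonged to a pair of overlapping windows 59721 and 59762 bp before the Ikzf2 start site. The nearer one (chr1:69746972-69747173) had 2.42, 1.46, 1.98 and 1.95 CPM in R26WT and 1.62, 2.52, 2.09 and 3.30 in R26TIR1(F74G) mice on day 3, and 2.91, 2.91 and 3.00 against 2.30, 1.73 and 2.07 on day 7. The genotypes overlapped on day 3 and not on day 7, the log2 fold change being 0.35 ± 0.25 on the former (adjusted p = 0.788) and -0.52 ± 0.24 on the latter (adjusted p = 0.828). The difference between the days was -0.87 ± 0.35 (adjusted p = 0.745).

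Day 7 was then set against day 3 within each genotype, where the same libraries served as in the comparisons above. In R26WT mice no member window passed (smallest adjusted p 0.861, 0.003% of all windows called). An unadjusted p under 0.05 was found for 12 of 163 (5.25% of all windows), 4 of them higher and 8 lower on day 7, with 5 by DESeq2 and 7 without mouse 2 of day 3. Without other mice this number reached 18. In R26TIR1(F74G) mice none passed either (smallest adjusted p 0.426, 0.0% called), 15 of 165 had an unadjusted p under 0.05 (6.96% of all windows), 10 higher and 5 lower, with 9 by DESeq2 and also without mouse 1 of day 7. The number reached 20 without another mouse. No gene sum passed in R26WT or R26TIR1(F74G) mice (0.0% called in each), and of the 5 only that of Ikzf4 had an unadjusted p under 0.05, in R26WT mice (5.21% of all gene sums there and 10.9% in R26TIR1(F74G) mice). Its log2 fold change of day 7 over day 3 was -0.56 ± 0.21 (adjusted p = 0.904), and -0.01 with the windows inside the gene added.

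In R26WT mice the windows with the smallest p in each direction lay at Ikzf2 and Ikzf4. The Ikzf2 window 71744 bp into the gene (chr1:69615507-69615708) had 2.08, 1.46, 1.298 and 1.18 CPM on day 3 and 0.78, 0.70 and 0.45 on day 7, a log2 fold change of -1.12 ± 0.38 (adjusted p = 0.861). Few counts stood behind these day 7 values, the lowest of them in a shallow library (mouse 3). The count filter averaged over the libraries of both days, so the higher day 3 values could carry this window through. The window 59762 bp before the Ikzf2 start site (chr1:69747013-69747214) had 2.60, 1.32, 1.71 and 1.83 CPM on day 3 and 3.23, 2.73 and 2.70 on day 7, a log2 fold change of 0.66 ± 0.25 (adjusted p = 0.899). In both the days did not overlap. For its overlapping neighbour, 59721 bp before the start site, it was 0.60 ± 0.25 (adjusted p = 0.916), and for the Ikzf4 window 5960 bp into the gene (chr10:128663611-128663812) -0.88 ± 0.34 (adjusted p = 0.909).

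In R26TIR1(F74G) mice they lay at Ikzf3 and Ikzf2. A pair of overlapping windows 588 and 636 bp into Ikzf3 had higher values on day 7: the former (chr11:98545343-98545544) had 1.98, 1.77, 1.34 and 1.13 CPM on day 3 and 3.21, 2.15 and 2.73 on day 7, without overlap. Its log2 fold change was 0.83 ± 0.26 (adjusted p = 0.426), and that of its neighbour 0.77 ± 0.27 (adjusted p = 0.518). The Ikzf3 window 18830 bp from the start site, described above, had -0.72 ± 0.24 (adjusted p = 0.486). The window 13070 bp before the Ikzf2 start site (chr1:69700321-69700522) had 1.98, 1.34, 1.12 and 0.72 CPM on day 3 and 0.27, 0.72 and 0.51 on day 7 (log2 fold change -1.30 ± 0.43, adjusted p = 0.484), at levels where few counts stood behind each value. Its higher day 3 values could carry it through the count filter, which averaged over the libraries of both days. It did not pass that filter in the day 7 genotype comparison or between the days in R26WT mice. The part of the filter in this difference was not tested.

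Partners of the Ikaros proteins were followed as a list of 21 genes, made up of NuRD subunits and related co-repressors and of the cereblon ligase, through which certain drugs degrade Ikaros and Aiolos. None of the 314 windows of the list passed in any comparison with edgeR. At an unadjusted p under 0.05 there were 24 of 311 windows (7.72%) on day 7, 17 of them higher in R26TIR1(F74G) mice. There were 30 of 311 (9.65%) on day 3, 8 of them higher, and 25 of 314 (7.96%) over both days, 10 of them higher. Over all windows these shares were the 5.95%, 7.55% and 6.73% given above. The median log2 fold change of the list was 0.04, -0.05 and 0.00 in these 3 comparisons.

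No gene sum of the list passed either. An unadjusted p under 0.05 was found for 0 of 21 on day 7, for 5 on day 3 (1 higher) and for 4 over both days (1 higher), where the shares over all gene sums were 7.66%, 16.9% and 14%. The smallest on day 3 was that of Sin3a, which encodes a scaffold of a deacetylase complex, with a log2 fold change of -0.19 ± 0.06 (adjusted p = 0.126). That of Mbd2, which encodes a NuRD subunit binding methylated DNA, was 0.13 ± 0.05 on day 3 (adjusted p = 0.208). Over both days the smallest was again that of Sin3a, with a log2 fold change of -0.11 ± 0.05 (adjusted p = 0.301). The others were -0.14 ± 0.06 for the deacetylase gene Hdac1 (adjusted p = 0.303) and -0.12 ± 0.05 for Mbd3 (adjusted p = 0.318). That of Crbn, which encodes cereblon, was 0.10 ± 0.05 (adjusted p = 0.333).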

How the data were processed

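Nuclei of an equal number of Treg cells per mouse were profiled by ATAC-seq, in which Tn5 transposase cuts open chromatin. According to the study's methods and the labels, the authors aligned reads with Bowtie2 to mm10 (GRCm38), called peaks with MACS2 (v2.2.7.1) on cut positions shifted and extended around the Tn5 site, kept peaks reproducible between replicates by IDR, merged them and counted reads at summit windows with featureCounts; the deposited values are raw counts, not normalized. Whether reads were shifted for counting is not given in the sources used here. A place without a reproducible peak has no window, and neighbouring summits gave overlapping windows that share reads.

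From these counts, windows were assigned to the nearest protein-coding start site (the outermost of each gene, RefSeq and, for strand, GENCODE). Values are CPM, counts scaled to library totals with TMM factors. Windows averaging at least 10 counts were tested with edgeR 4.0.16 (quasi-likelihood, R 4.3.3; limma 3.58.1), with Benjamini-Hochberg adjustment over all windows tested and a threshold of 0.05; gene sums, from 121 non-overlapping member windows, were tested likewise over all genes. An error after ± is the SE for a log2 fold change and the SD otherwise; each group held 4 mice on day 3 and 3 on day 7. DESeq2 1.42.0, other scalings and filters, left-out mice, a replicate block, the mouse-name prefix, other window sets and pseudocounts were alternatives. Counts per window limit the precision, and the scripts were tested on simulated data. Replicate pairs of a group differed beyond counting noise, so each counted as a sample.

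The members, lists and rules were chosen with earlier results of these data known. Windows named were, for each gene, the one nearest the start site and the one with the highest CPM, and across members the 3 smallest p in each direction per genotype comparison and the 2 smallest per day comparison. For likeness, the 2 genes whose start-site window (mean count of at least 50) had the highest Pearson correlation with the member's were taken; other windows were chosen after their values were seen.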

Additional observations from a re-analysis of the deposited data

Results flagged for a closer look

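In the groups of 4 mice, which are those of day 3, 66 sets of values were examined for a mouse far from the other 3, and 4 were found where about 3.3 come by chance at 1 in 20. The Ikzf5 start-site window had 42.9 CPM in R26WT mouse 4, against 34.2 to 35.7 CPM in the others. The Ikzf2 window 71744 bp into the gene had 1.56 CPM in R26TIR1(F74G) mouse 2, against 0.88 to 0.90 CPM. The Ikzf2 window 13070 bp before the start site had 1.73 CPM in R26WT mouse 1, against 0.46 to 0.55 CPM. The Ikzf4 gene sum was 4.75 CPM in R26TIR1(F74G) mouse 1, against 7.92 to 8.25 CPM, and that library had the lowest total, 5653289 counts.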

How the results depend on the processing

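Of 228 alternative counts of called member windows or gene sums, 227 had no member called, and the exception was the Ikzf2 sum over both days with DESeq2, where the count was 1 in place of 0. The number of member windows was 37 within 10 kb of a start site and 255 with the windows inside the genes added. Replicate numbers did not pair the mice (correlations of same-numbered mice from -0.069 to 0.067). With the number as a replicate block no member was called, and the Ikzf2 sum over both days had a log2 fold change of 0.11 (adjusted p = 0.215). The added windows were an alternative chosen after seeing the data. Members with an unadjusted p under 0.05 numbered 8, 7 and 8 on day 7, day 3 and for both days, and 5, 4 and 5 among windows averaging at least 50 counts, where fewer windows were tested. On that filter they were 1 for the interaction (from 6), 3 for the days in R26WT (from 12) and 1 in R26TIR1(F74G) mice (from 15). With the mouse-name prefix the day 7 number was 3, and with the windows inside the genes added it was 13, and 16 for both days.

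Of 1344 values of named windows and gene sums under alternatives, 71 had the opposite direction, 41 of them with a mouse left out. The cause of these turns was not tested, and none crossed the threshold. With the windows inside the gene added, the Ikzf4 sum on day 7 was -0.067, the Ikzf1 interaction -0.0092, and the day difference in R26TIR1(F74G) mice -0.0021 for Ikzf2 and -0.019 for Ikzf3. With all windows summed, the Ikzf5 sum on day 7 was 0.0092, the Ikzf2 day difference in R26WT mice 0.014 and that of Ikzf4 in R26TIR1(F74G) mice -0.037. Within 10 kb, Ikzf5 on day 3 was 0.0013, the interactions were -0.0014 for Ikzf2, 0.10 for Ikzf3 and -0.014 for Ikzf5, the day differences in R26WT mice 0.062 for Ikzf1 and 0.012 for Ikzf2, and those in R26TIR1(F74G) mice 0.086 for Ikzf1 and -0.0080 for Ikzf4. With total counts for scaling, the interactions were -0.018 for Ikzf1 and -0.0068 for Ikzf5, the day differences 0.0017 for Ikzf2 in R26WT and -0.0012 for Ikzf4 in R26TIR1(F74G) mice, the Ikzf1 window 41275 bp into the gene 0.028 on day 3 and the Ikzf2 start-site window 0.0070 over both days. With windows averaging at least 50 counts, the Ikzf1 interaction was -0.0085, the Ikzf1 start-site window -0.013 on day 7, the Ikzf1 window 41275 bp into the gene 0.058 on day 3 and the Ikzf2 start-site window 0.0095. With the replicate block and with the mouse-name prefix, the day differences were 0.011 and 0.0105 for Ikzf5 in R26WT and -0.015 and -0.012 for Ikzf3 in R26TIR1(F74G) mice, and the prefix gave 0.039 for the Ikzf2 start-site window.

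With each mouse left out, gene sums ran from -0.016 to 0.10 (Ikzf1) and -0.031 to 0.023 (Ikzf5) on day 7, from -0.0085 to 0.066 and -0.050 to 0.0075 on day 3, and from -0.029 to 0.0033 (Ikzf5) over both days. Interactions ran from -0.055 to 0.059 (Ikzf1), -0.0041 to 0.053 (Ikzf2), -0.12 to 0.026 (Ikzf3) and -0.019 to 0.043 (Ikzf5). Day differences ran from -0.038 to 0.020 (Ikzf2) and -0.051 to 0.0095 (Ikzf5) in R26WT, and from -0.026 to 0.091 (Ikzf3) and -0.11 to 0.070 (Ikzf4) in R26TIR1(F74G) mice. Windows ran from -0.044 to 0.10 (Ikzf1 start site, day 7), -0.11 to 0.068 (Ikzf1 at 41275 bp, day 3), -0.055 to 0.028 (Ikzf2 start site, both days) and -0.035 to 0.15 (Ikzf2 at 213 bp, day 3).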

Other observations

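The genes whose start-site windows varied most like those of the family over the 14 libraries were found by Pearson's r of log2 CPM, as a description, since all points share the libraries and their depth. For Ikzf1 they were Mapk7 (r = 0.835) and 2310057M21Rik (0.793), for Ikzf2 Hoxa10 (0.884) and Eif2s3x (0.818), for Ikzf3 Cwc25 (0.832) and Setd1a (0.825), for Ikzf4 Jrkl (0.786) and Nucb1 (0.755), and for Ikzf5 Samd4b (0.938) and Irf9 (0.926). They were the highest among 9109 genes (9110 for Ikzf4), and no member was among the genes most like another.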
